A study of Mus musculus with 3 samples.

Results

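The cells described here were mast-like cells of the mCherry library that carried at least 10 molecules (unique molecular identifiers, UMIs) of Cma1, the messenger of a mast cell chymase. They were chosen by that count alone, among cells with at least 1000 genes, at least 2000 UMIs and under 10% of UMIs from mitochondrial genes. The rule found 555 cells among the 10419 mCherry cells that passed (5.33%; 95% Clopper-Pearson interval 4.9 to 5.78), and among 27541 passing cells of the series. Because Cma1 chose the cells, its own level is given as a description and supports nothing.

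The series profiled DAPI-negative, lineage-negative, c-kit-positive bone marrow cells of C57BL/6 mice in 3 droplet libraries, 1 for each group. The mCherry and non_mCherry libraries were sort fractions of 1 knock-in mouse, and a wild-type mouse gave the control library. The knock-in mouse carried Mx1-Cre, a recombinase gene switched on by interferon, and 1 conditional Runx1-Runx1t1 allele, the mouse form of the leukemia fusion AML1-ETO, with the mCherry sequence downstream of it. After poly(I:C), recombined cells express the fusion and fluoresce (mCherry), and cells without recombination do not (non_mCherry). Whether the wild-type mouse was given poly(I:C) is not stated in the labels, which give no age either. All 3 sorts kept c-kit-positive marrow cells only, so c-kit-negative basophils were outside the gate, and no other tissue was sampled.

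With 1 library per group and 1 mouse per genotype there was no replicate check, and no test was made. Levels are counts per 1000000 UMIs (CPM), summed over a group of cells, with exact 95% Poisson intervals where given. Shares of cells carry exact 95% Clopper-Pearson intervals. Both cover counting error only, not the spread between mice or libraries. A gene is called at least 2-fold apart when the ratio of its CPM values, each with 5 CPM added, reached 2 (1 on the log2 scale) and at least 1 of the values was 20 CPM or more. Such calls describe size in these libraries.

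Mast cells and basophils are granulocytes that bind IgE through the receptor Fc epsilon RI and release histamine and proteases. Mast cells mature in tissues, depend on KIT signalling, and fill their granules with chymases, tryptases and carboxypeptidase A3 bound to the proteoglycan serglycin. Basophils mature in the marrow, and in the mouse they carry the proteases Mcpt8 and Prss34. Both lines share progenitors that use the factors GATA2 and GATA1, and the factor MITF is associated with the mast cell line.

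Several protease genes of these cells are neighbours on chromosome 14 in the mm10 annotation, all on the minus strand. Cma1 lies at 55941451 to 55944675, Mcpt4 at 56059629 to 56062313, Mcpt8 at 56082166 to 56085273 and Ctsg at 56099881 to 56102574. Their upstream sequences are shown because Mcpt4, Mcpt8 and Ctsg had UMIs in 50, 332 and 502 of the 555 cells. Cma1, which the rule puts in every cell, is shown as their neighbour. The lines give the RefSeq promoter sequences on GRCm38.p6, the bases before the start site, 5′ to 3′ on the minus strand, without bases inside the annotated gene. They cover chr14:55944676-55944925 (Cma1), chr14:56062314-56062560 (Mcpt4), chr14:56085274-56085447 (Mcpt8) and chr14:56102575-56102824 (Ctsg). Capitals mark letters searched on both strands: GATAA, the core bound by GATA factors, TGTGGT, bound by RUNX factors, and CATGTG, an E-box of the kind bound by MITF.
Cma1: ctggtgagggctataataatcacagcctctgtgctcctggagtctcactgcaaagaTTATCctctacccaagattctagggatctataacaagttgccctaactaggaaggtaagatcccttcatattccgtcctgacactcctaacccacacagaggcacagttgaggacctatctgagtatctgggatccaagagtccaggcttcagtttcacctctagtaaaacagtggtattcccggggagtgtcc
Mcpt4: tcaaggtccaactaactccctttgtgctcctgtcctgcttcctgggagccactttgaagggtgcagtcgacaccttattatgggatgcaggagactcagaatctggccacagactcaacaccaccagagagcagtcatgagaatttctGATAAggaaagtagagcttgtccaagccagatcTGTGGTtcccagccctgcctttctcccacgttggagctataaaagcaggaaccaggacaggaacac
Mcpt8: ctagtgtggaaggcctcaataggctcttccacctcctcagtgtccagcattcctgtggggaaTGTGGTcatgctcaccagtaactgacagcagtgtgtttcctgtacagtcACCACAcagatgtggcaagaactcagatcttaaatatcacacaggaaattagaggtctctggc
Ctsg: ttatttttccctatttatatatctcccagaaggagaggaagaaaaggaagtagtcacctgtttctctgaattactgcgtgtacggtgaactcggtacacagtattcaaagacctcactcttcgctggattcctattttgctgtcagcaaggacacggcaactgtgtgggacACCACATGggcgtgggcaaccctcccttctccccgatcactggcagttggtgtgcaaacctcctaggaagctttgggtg
Cma1 held 1 GATAA and neither other motif, Mcpt4 held 1 GATAA and 1 TGTGGT, and Mcpt8 held TGTGGT at 2 places and no GATAA. In Ctsg the capitals were TGTGGT on the other strand overlapping CATGTG on the other strand, so that run holds both. Of 32851 RefSeq promoters, 22.6% held GATAA, 14% held TGTGGT and 12.3% held CATGTG within 250 bases upstream, and 10% held TGTGGT within the 174 bases shown for Mcpt8. The longest run of letters that any 2 of the 4 shared was 10 bases, between Cma1 and Mcpt4. These matches are descriptions of letters, and no binding was measured.

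Cma1 per cell ran from 10 to 509 UMIs in the 555 cells, with a median of 62. No gap separated them from the other mCherry cells: 39 cells had 8 or 9 Cma1 UMIs and 27 had 10 or 11. Just outside and just inside the threshold, Kit was at 630 and 491 CPM, Fcer1a at 305 and 167 CPM, Hdc at 343 and 311 CPM and Cpa3 at 18279 and 13666 CPM. Gata2 was at 269 and 354 CPM, Mcpt8 at 181 and 253 CPM and Cyp11a1 at 2.96 and 70.1 CPM, so some sums were lower inside and others higher. Single cells weigh in these sums. Just inside, 1 cell held 52 of 65 Mcpt8 UMIs, and just outside, 1 cell held 41 of 103 Fcer1a UMIs. Shares of cells with a UMI, outside and inside, were 43.6% and 29.6% for Mcpt8 and 38.5% and 40.7% for Fcer1a. A further 1343 cells had a single Cma1 UMI, and 8038 (77.1%) had none. The 555 cells held 94.2% of all Cma1 UMIs in passing mCherry cells. In control the same rule found 11 of 9066 cells (0.121%; 0.0606 to 0.217), and in non_mCherry 12 of 8056 (0.149%; 0.077 to 0.26), although a control cell had a median of 15621 UMIs, a non_mCherry cell 9361 and an mCherry cell 8241. No non_mCherry cell had more than 140 Cma1 UMIs and no control cell more than 87.

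**Figure D1:**
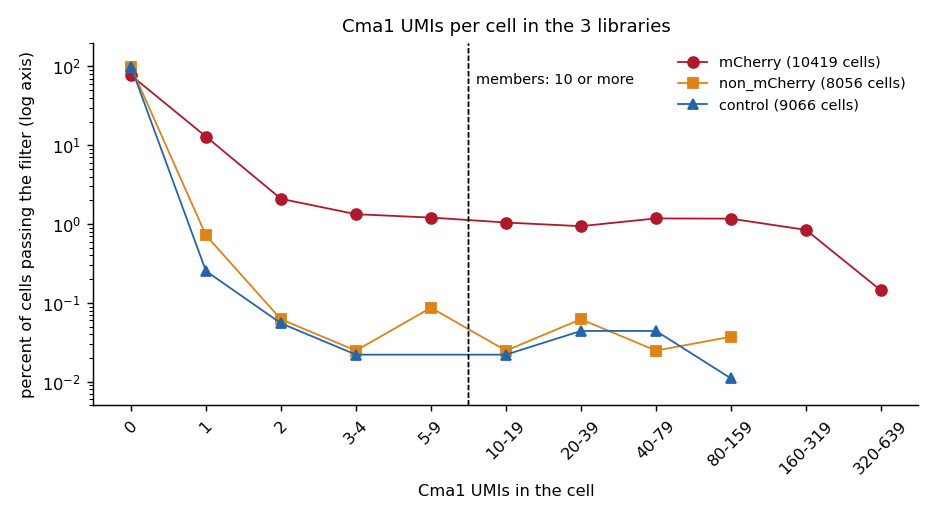
Percent of passing cells (log axis) in each class of Cma1 UMIs per cell for the mCherry, non_mCherry and control libraries; classes with no cell are left out and the dashed line marks the rule of 10 UMIs. The mCherry curve stays near 1% from 5 to 159 UMIs, and the other libraries lie at or below 0.1% from 2 UMIs on.

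The marker genes fit a mast-like name in part. All 555 cells had a UMI of Cpa3, which encodes mast cell carboxypeptidase A3, and 533 had one of Kit, the receptor for stem cell factor. Of 13 mast cell markers other than Cma1, with Cpa3 and Kit among them, a median of 8 were detected per cell. The median was 4 in mCherry cells with Cma1 at 0 and 6 in control basophil cells, at the unequal depths given below. At least 6 of the 13 were detected in 90.6%, 24.6% and 91.1% of these cells, so that number did not set the 555 cells apart from basophils. The tryptase gene Tpsab1 had UMIs in 2 of the 555 cells (0.7 CPM), Mrgprb2, a receptor of connective tissue mast cells, in 4 (1.4 CPM), and Tpsb2, a tryptase gene, in 20. The proteases Mcpt1 and Mcpt9 and the receptor Mrgprb1 had none. Of the IgE receptor genes, Ms4a2 had a UMI in 81.6% of the 555 cells and Fcer1a in 38.9%. Few cells had a UMI of a tryptase or Mrgprb gene. Basophil markers were present as well. Summed without Prss34, the basophil list was at 1300 CPM, 342 CPM in Cma1-zero cells and 8986 CPM in control basophil cells. Of its 5 genes measured against Cma1-zero cells, Mcpt8, Cyp11a1 and Cd200r3 were at least 2-fold higher and Ifitm1 lower. Mcpt8 had a UMI in 332 of the 555 cells.

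Marker lists of other cell types differed in level. Summed over its 13 genes, the neutrophil list was at 315 CPM in the 555 cells, 1199 CPM in Cma1-zero cells and 6507 CPM in control basophil cells. The monocyte list was at 139, 259 and 853 CPM in the same order, and Csf1r, Ly6c2 and Clec12a had no UMI in the 555 cells. The B cell list was at 33.1, 50.9 and 63.2 CPM, with 5 of 9 listed genes at 0 UMIs, Pax5 and Ebf1 among them. Of the T, NK and innate lymphoid list (130, 118 and 877 CPM) 5 of 10 genes were at 0 UMIs, Cd3d, Cd3e and Cd3g among them. Of the eosinophil list (12.6, 7.06 and 1518 CPM) 3 of 8 were at 0 UMIs. The last sum does not describe basophils as a group. Only 6 of the 224 control basophil cells had 10 or more UMIs of the eosinophil gene Prg2, and the list was at 64.3 CPM in non_mCherry basophil cells. Summed levels of the erythroid (732, 918 and 1015 CPM), megakaryocyte (474, 454 and 428 CPM) and dendritic cell lists (237, 266 and 195 CPM) lay closer together in the 3 groups. Alas2, Gp9, Vwf and Siglech were at 0 UMIs in the 555 cells. The sums hide single genes that differed from control basophil cells. Of 9 measured erythroid genes, 1 was at least 2-fold higher and 6 lower. Of 6 megakaryocyte genes, 3 were higher and 2 lower. Over all genes, 15.4% were higher and 9.23% lower.

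The 555 cells were shallower than the cells they are compared with. Their median was 6580 UMIs and 2338 genes per cell, against 8304 UMIs in Cma1-zero cells and 10674 UMIs in the 224 control basophil cells. The median mitochondrial percent was 2.24, 2.55 and 1.63. The nuclear noncoding RNA Malat1 was at 24661, 19408 and 7908 CPM. A Scrublet doublet score over 0.25 marked 37 of the 555 cells (6.67%), 157 Cma1-zero cells (1.95%) and 13 control basophil cells (5.8%). Barcodes shared between libraries numbered 34 for mCherry and non_mCherry, 42 for mCherry and control and 24 for non_mCherry and control, and 3 of the 555 cells had a barcode that was also in control. What part depth, RNA quality or mixed droplets have in the differences below was not tested, except where a value is given.

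Against the 8038 mCherry cells with Cma1 at 0, from the same sort fraction of the same mouse, the 555 cells stood apart in few genes. Of 6297 genes, 130 were at least 2-fold higher (2.06%) and 77 at least 2-fold lower (1.22%), and the median log2 ratio was -0.03. The proteases Mcpt4, Mcpt8, Tpsb2 and Ctsg, the IgE receptor chains Fcer1a and Ms4a2, and Hdc were among the 12 genes furthest up. Dntt and Gimap4, known from lymphoid cells, and the myeloid genes Prtn3 and Mpo were among the 12 furthest down.

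Of 5 granule protease genes measured beside Cma1, 4 were at least 2-fold higher than in Cma1-zero cells and none lower. Ctsg, which encodes cathepsin G, was at 3702 CPM (3644 to 3760) against 421 CPM (416 to 426), 8.79-fold higher, and 502 of the 555 cells had a UMI of it. Cpa3 was at 18695 against 9677 CPM, 1.93-fold higher, so that it was abundant in mCherry cells without Cma1 as well. Per cell, Cpa3 ran from 13 to 549 UMIs with a median of 131 in the 555 cells, and from 0 to 594 with a median of 68 in Cma1-zero cells, and these ranges overlap over most of their length.

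The other proteases were carried by subsets of the 555 cells. Mcpt8 stood at 969 CPM where Cma1-zero cells had 21.4 CPM, a ratio of 45.4 (42.8 to 48.1), with a UMI in 332 cells and at most 150 UMIs in a cell. Mcpt4, a chymase gene of connective tissue mast cells, was at 316 CPM against 1.38 CPM, but only 50 cells had a UMI and the 10 highest cells held 81.6% of its UMIs. The cell filter moved that gene: its log2 ratio was 5.65, and 6.32 with all deposited barcodes, since 21 left-out barcodes held 881 further Mcpt4 UMIs beside the 1356 kept. Tpsb2 was at 103 against 0.675 CPM, with a UMI in 20 cells and 91.8% of UMIs in 10 of them, and the tryptase gene Tpsg1 at 25.7 against 0.162 CPM in 24 cells. Sums for Mcpt4, Tpsb2 and Tpsg1 therefore describe a few cells. Cma1, Mcpt4, Mcpt8 and Ctsg are related in sequence, as are Tpsb2 and Tpsab1, and how reads that match several of them were counted is not given in the sources used here, so the split within each family is uncertain.

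Of 13 genes of granule storage and amines, 5 were at least 2-fold higher and none lower, with a median log2 ratio of 0.83. Hdc, which makes histamine, was at 524 CPM (503 to 546) against 56.4 CPM, 9.29-fold higher. Ndst2, which sulfates the heparin chains of mast cell serglycin, was at 201 against 18.7 CPM, 10.7-fold higher. Srgn, the serglycin core protein, was at 7041 against 3100 CPM, and Slc18a2, the vesicle transporter that loads histamine and serotonin, at 397 against 154 CPM. Rab27b, a GTPase of granule release, was at 171 against 51.3 CPM, while Vamp8, a SNARE protein of granule release, was level at 319 against 322 CPM.

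Of 12 surface receptor genes, 6 were at least 2-fold higher and none lower. The IgE receptor alpha chain Fcer1a was at 213 CPM (200 to 228) against 16.1 CPM (13.2-fold), and the beta chain Ms4a2 at 391 against 39.4 CPM (9.94-fold). The gamma chain Fcer1g, shared with other Fc receptors, was at 98.2 against 47.6 CPM, with a log2 ratio of 0.97. Il1rl1, the receptor ST2 for interleukin 33, was at 679 against 109 CPM (6.21-fold) and Kit at 752 against 234 CPM (3.21-fold), although both groups were sorted on c-kit. The adenosine receptor Adora3 was at 33.3 against 0.931 CPM. UMIs of both Fcer1a and Ms4a2 were seen in 195 cells, 90.3% of the Fcer1a cells and 43% of the Ms4a2 cells.

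Signalling genes below these receptors were nearly level. Of 13 genes of IgE receptor signalling, 1 was at least 2-fold higher, Lat2, an adaptor of mast and B cells, at 265 against 103 CPM. The kinase substrate Lcp2 was at 108 against 85.6 CPM and Plcg1, a phospholipase, at 63 against 42.7 CPM. Of 12 genes of KIT signalling and feedback, Kit itself and Socs1, a feedback inhibitor of cytokine signals, at 61.6 against 19.9 CPM, were at least 2-fold higher. None of 6 eicosanoid genes was 2-fold apart. Alox5, the first enzyme of leukotriene synthesis, had 2 UMIs in the 555 cells, while its partner Alox5ap was at 407 against 561 CPM.

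Among 22 transcription factor genes measured, 3 were at least 2-fold higher and 2 lower. Gata2 was at 465 CPM against 168 CPM (2.76-fold), Gata1 at 58.8 against 13.4 CPM (4.4-fold) and Id2, an inhibitor of E proteins, at 253 against 57.2 CPM (4.43-fold). Lmo2, a partner of GATA factors in stem cells, was at 168 against 416 CPM and Id1 at 41.7 against 92 CPM. Mitf was at 105 against 69.4 CPM (1.52-fold). Runx1 was at 440 against 370 CPM, and Runx1t1, the other gene joined in the fusion, at 7.23 CPM (4.91 to 10.3) against 8.34 CPM, so both stood near the level of the other mCherry cells.

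Stem and lymphoid progenitor genes were mostly level or lower, with 1 of 13 stem cell genes at least 2-fold higher and 3 lower. Cd34 was at 182 against 463 CPM, Flt3, a cytokine receptor of lymphoid-primed progenitors, at 9.33 against 35.9 CPM, and Esam at 10.7 against 35.4 CPM. Dntt, the terminal transferase of lymphoid progenitors, was at 60.2 against 266 CPM. Hlf, a stem cell factor, was at 155 against 311 CPM with a log2 ratio of -0.98, while Ly6a, which encodes Sca-1, was at 807 against 643 CPM and Pdzk1ip1 was higher, at 227 against 101 CPM.

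Other genes among the 12 furthest up in this comparison were Cyp11a1, a steroid synthesis enzyme found in basophils, at 75.8 against 0.459 CPM, Chst1, a sulfotransferase, at 153 against 18.5 CPM, and Cited4 at 63.4 against 5.56 CPM. Those furthest down included Slc16a11, at 54.8 against 254 CPM, Gimap4, a lymphoid GTPase gene, at 19.4 against 92.1 CPM, Tnfrsf1a at 9.79 against 47.5 CPM, Ifitm1 at 8.39 against 58.2 CPM, Prtn3 at 13.8 against 65.2 CPM and Mpo, the myeloperoxidase gene, at 170 against 600 CPM. The neutrophil genes S100a9, S100a8, Camp and Ngp also stood among them, at 6.06 against 160 CPM in the case of S100a9. However, 7 Cma1-zero cells with at least 10 S100a9 UMIs held 97.3% of the S100a9 UMIs of their group, and without them the log2 ratios were 0.24, 0.01, 0.07 and 0.16. The secreted chemokine Ccl2 was at 766 against 140 CPM (5.46-fold).

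Cell cycle genes were slightly lower in the 555 cells. Of 28 S phase genes, 1 was at least 2-fold higher (Blm) and 2 lower (Hells and Uhrf1), with a median log2 ratio of -0.57. Uhrf1 was no longer 2-fold lower against Cma1-zero cells in the depth range of the 555 cells. With cells thinned to 5000 UMIs it was not 2-fold lower either. Of 32 G2 and M phase genes none was 2-fold apart, with a median of -0.39. Mki67, a proliferation marker, was at 54.1 CPM (47.4 to 61.5) against 83.1 CPM, and 10 of the 555 cells held 82.3% of its UMIs. Immediate early (0 of 15 genes), fatty acid oxidation (0 of 17) and mitochondrially encoded genes (0 of 12) gave no gene 2-fold apart in this comparison.

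**Figure D2:**
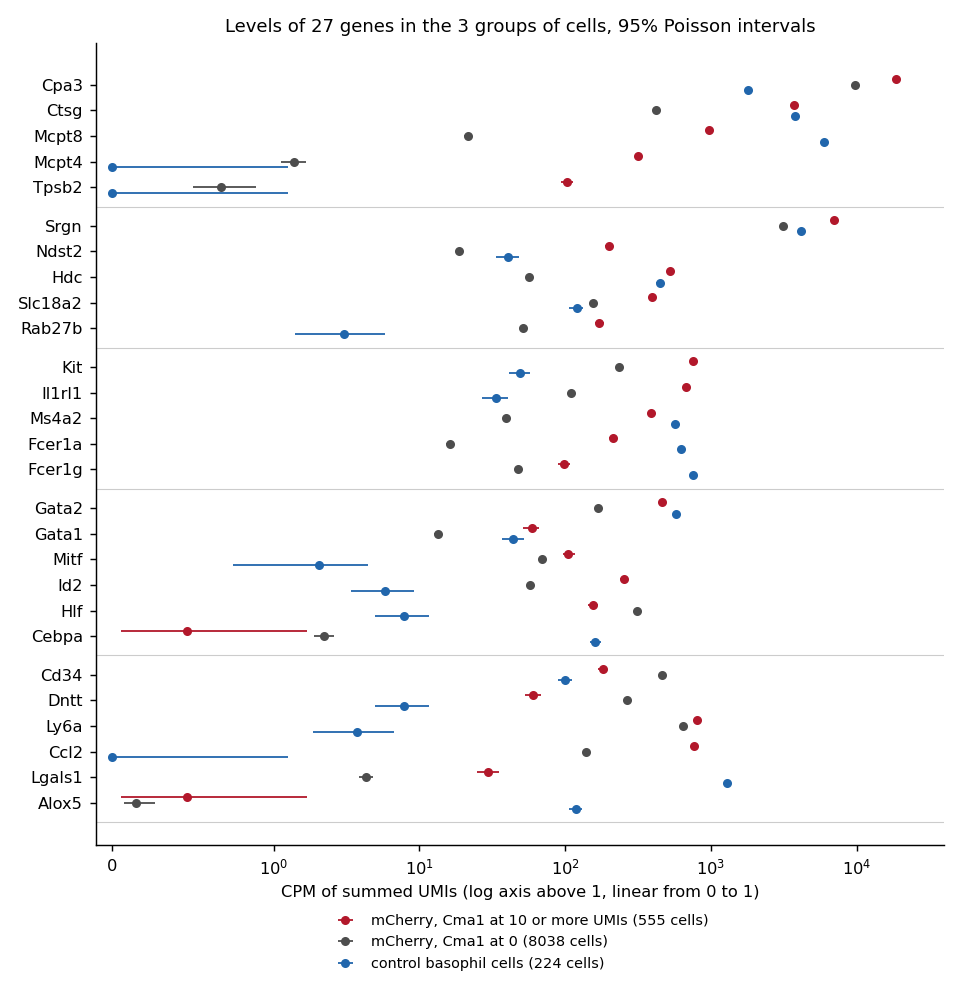
CPM of summed UMIs (log axis above 1, linear below) of 27 genes in mCherry cells with Cma1 at 10 or more UMIs, mCherry cells with Cma1 at 0 and control basophil cells; points are values and lines 95% Poisson intervals, many shorter than the points. Hdc, Ms4a2, Ctsg and Gata2 of the Cma1-high cells lie near the basophil values, and Kit, Il1rl1, Mitf and Ly6a lie far from them.

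With depth made equal, the receptor and histamine genes still stood apart in share of cells. With every cell thinned to 5000 UMIs, which left 447 of the 555 cells, 7499 Cma1-zero cells and 221 control basophil cells, Il1rl1 had a UMI in 89.7% of the Cma1-high, 31.8% of the Cma1-zero and 16.3% of the basophil cells (95.5%, 42.5% and 33.5% before thinning). The shares for Ms4a2 were 77.2%, 8.83% and 92.3% (81.6%, 11.5% and 98.7% before). Those for Hdc were 73.8%, 14.9% and 85.1% (79.6%, 20.3% and 98.7% before). Kit had a UMI in 91.7%, 63.4% and 17.2%, against 96%, 79.5% and 39.3% before thinning. For the stem cell gene Hlf the shares were 43.6%, 68.8% and 3.17% (48.3%, 81.3% and 7.59% before), and for Mki67 6.26%, 10.5% and 40.7% (7.03%, 13.5% and 51.8% before). As genes of other lines, the B cell gene Cd79a had a UMI in 0.224%, 0.187% and 0.905% of thinned cells (0.541%, 0.386% and 0.893% before), and the neutrophil gene Elane in 0 of 447 Cma1-high cells, for which 3 counts of the total give 0.671% and the exact 95% upper limit is 0.822%. Both genes were rare in mCherry cells as a whole, so these shares do not gauge free RNA of abundant granule messengers.

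Against the 224 control cells with at least 5 UMIs of the basophil protease gene Prss34, differences were far more numerous. Among 6531 genes, 1006 (15.4%) were higher and 603 (9.23%) lower by at least 2-fold, with a median log2 ratio of 0.15. These 2 groups also differ in mouse, genotype, library and possibly poly(I:C), which cannot be told apart here from cell type. Many of the largest ratios were shared by all mCherry cells: Ly6a was at 807 CPM against 3.74 CPM in basophils, but at 643 CPM in Cma1-zero cells as well, and Ctla2a, a protease inhibitor related in sequence to Ctla2b, was at 3520, 84.6 and 3379 CPM in Cma1-high, basophil and Cma1-zero cells.

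The protease content differed in kind between the 555 cells and basophils. Ctsg was level at 3702 against 3772 CPM. Cpa3 was 10.4-fold higher, at 18695 against 1805 CPM. Mcpt8 was 6.12-fold lower, at 969 against 5927 CPM (94.6% of basophils and 51.2% of Cma1-high cells had a UMI after thinning, 97.3% and 59.8% before). Mcpt4 had no UMI in basophils. Prss34, which chose the basophils, was absent at 5 UMIs or more from every passing mCherry cell, and 20 of the 555 cells had 1 to 3 UMIs of it. The granzyme gene Gzmb, also expressed by mast cell progenitors, was at 1.87 CPM against 58.5 CPM, where 10 basophils held 57.6% of the UMIs.

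Hdc, Ms4a2 and Il3ra were less than 2-fold from the basophil level, and the other IgE receptor chains, Kit and Il1rl1 were further apart. Hdc was at 524 against 447 CPM, Ms4a2 at 391 against 565 CPM and Il3ra, the interleukin 3 receptor, at 105 against 132 CPM. Fcer1a was 2.93-fold lower, at 213 against 625 CPM, and Fcer1g 7.7-fold lower, at 98.2 against 756 CPM. Kit was 15.5-fold higher, at 752 against 48.6 CPM, and Il1rl1 20.4-fold higher, at 679 against 33.3 CPM. Of 12 receptor genes measured, 3 were at least 2-fold higher and 2 lower. In granule storage, 3 of 14 genes were higher and none lower. Over all genes, 15.4% were higher and 9.23% lower, so counts this small do not set either list apart. Among the 3 storage genes were Rab27b at 171 against 3.06 CPM and Ndst2 at 201 against 40.5 CPM. Alox5 was at 0.466 against 118 CPM, a ratio of 0.00397 (0.000478 to 0.0144) that rests on 2 UMIs, and Cma1-zero cells were as low, at 0.148 CPM.

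Among 25 transcription factors, 8 were at least 2-fold higher than in basophils and 4 lower. The shares over all genes were 15.4% and 9.23%. Gata2 (465 against 580 CPM), Gata1 (58.8 against 44.2 CPM) and Runx1 (440 against 364 CPM) were less than 2-fold apart. Mitf was 51.7-fold higher, at 105 against 2.04 CPM, and Id2 43.8-fold higher, at 253 against 5.78 CPM. The myeloid factor gene Cebpa was at 0.466 against 161 CPM, and Spi1, which encodes PU.1, at 82.8 against 182 CPM. Mitf was at 69.4 CPM and Cebpa at 2.21 CPM in Cma1-zero cells, so those differences were shared with other mCherry cells, whereas Id2 was at 57.2 CPM there.

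Of 8 basophil genes measured, 5 were at least 2-fold lower than in control basophils and none higher, against 9.23% and 15.4% of all genes. Ifitm1 was at 8.39 against 1391 CPM, the chemokine gene Ccl3 at 0.7 against 433 CPM, Ccl4 at 151 against 914 CPM and Il6 at 10.3 against 95.5 CPM. Il4, at 19.4 against 25.2 CPM, and the receptor Cd200r3, at 56.4 against 55.4 CPM, were less than 2-fold apart. Lgals1, a galectin, was at 29.6 against 1297 CPM, Rnase12 at 1.4 against 330 CPM and Ms4a3 at 14.5 against 801 CPM. Prg2, the eosinophil major basic protein gene, had the largest negative ratio (0.233 against 1347 CPM), but 10 control cells held 99.7% of its UMIs. Elane and Prtn3 were at 0.233 against 979 CPM and 13.8 against 1675 CPM, with 58.9% and 43.2% of basophil UMIs in 10 cells.

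Some of the genes higher in the 555 cells than in basophils were in the lists, though most of the 1006 were in none. The list counts below stand beside 15.4% of all genes higher and 9.23% lower. Ccl2 was at 766 CPM against no UMI, at least 751-fold higher (floor of 3 UMIs over the group). Of 12 stem cell genes, 8 were higher and 1 lower, among them Ly6a, Pdzk1ip1 (227 against 7.14 CPM) and Hlf (155 against 7.82 CPM). Of 13 IgE receptor signalling genes, 8 were higher and none lower, such as Plcg1 (63 against 7.82 CPM) and Lcp2 (108 against 21.8 CPM), while the receptor chains Fcer1a and Fcer1g were lower. The median log2 ratio of that list was 1.22, and 0.99 against basophils of the non_mCherry library. Of 15 immediate early genes, 14 were higher (Zfp36 at 1401 against 120 CPM) and 1 lower (Ier3 at 68.1 against 1116 CPM), and of 12 interferon response genes 9 were higher and none lower, such as Irf7 at 56.9 against 4.08 CPM. Malat1 moved with these lists, 3.12-fold higher in the 555 cells, and immediate early genes also respond to handling and sorting. The part of either in these differences was not tested, and Zfp36 was at 1354 CPM and Irf7 at 38.1 CPM in Cma1-zero cells.

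The cell cycle lists were lower than in basophils, with 28 of 37 S phase genes at least 2-fold lower and 1 higher (median log2 ratio -1.66) and 27 of 41 G2 and M phase genes lower and none higher (median -1.29). Against non_mCherry basophils the median of the latter was -0.59. Among all genes, 9.23% were at least 2-fold lower than in control basophils and 15.4% higher. Mki67 was at 54.1 against 227 CPM and Rrm2, a subunit of ribonucleotide reductase, at 3.73 against 81.2 CPM. In the fatty acid oxidation list 0 of 17 genes was 2-fold apart, with Cpt1a, the gate of fatty acid entry into mitochondria, at 38.7 against 27.5 CPM.

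Basophils of the non_mCherry library, from the same mouse as the 555 cells, differed from them in the same direction as control basophils in the genes given here. In these 171 cells Kit was at 27.3 CPM, Il1rl1 at 37 CPM, Mitf at 1.82 CPM, Ly6a at 3.64 CPM, Mcpt8 at 7533 CPM and Alox5 at 144 CPM, and Ccl2 had no UMI. With them in place of control basophils, 1133 genes were higher and 517 lower by at least 2-fold.

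**Figure D3:**
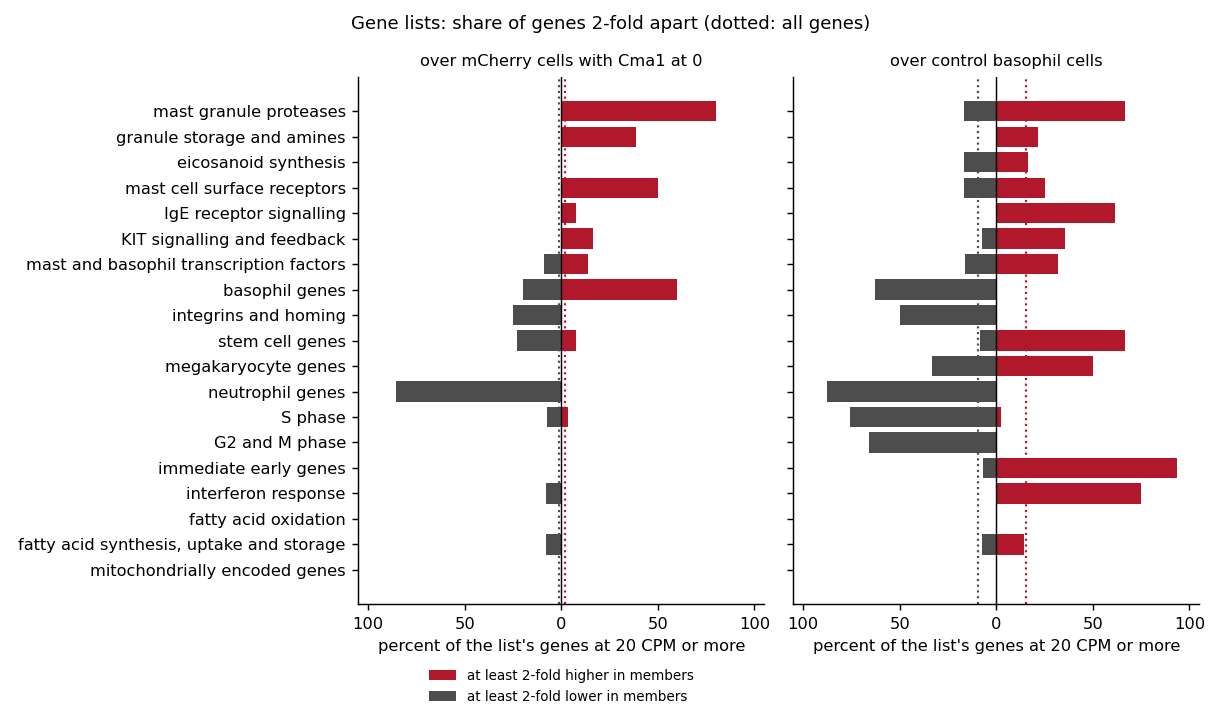
Percent of each list's measured genes that were at least 2-fold higher (right, red) or lower (left, grey) in mCherry cells with Cma1 at 10 or more UMIs, against Cma1-zero mCherry cells (left panel) and control basophil cells (right panel), for lists with 5 or more measured genes in each; dotted lines give the same over all genes. Proteases, storage and receptor genes stand out on the left panel. Of its 4 higher proteases, Mcpt4, Tpsb2 and Tpsg1 had UMIs in only 50, 20 and 24 of the 555 cells. Its neutrophil bar rests largely on 7 Cma1-zero cells. Cell cycle, immediate early, neutrophil, interferon response, stem cell and basophil genes are among the lists that stand out on the right panel.

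Within mCherry cells, Fcer1a, Ms4a2, Kit and Hdc were already raised in cells with 5 to 9 Cma1 UMIs, below the rule's threshold. Kit, Hdc and the other proteases were highest at the top of the Cma1 range. Fcer1a was at 16.1, 33.9, 213, 182, 225 and 221 CPM in cells with 0, 1 to 4, 5 to 9, 10 to 19, 20 to 39 and 40 or more Cma1 UMIs. Fcer1a therefore did not differ in a set direction among the last 4 classes, and Ms4a2 (310, 375, 406 and 393 CPM) and Kit (560, 657, 732 and 793 CPM) differed among them by less than they did from the class of 1 to 4. Kit was still higher in each of these classes than in the one before. Hdc was at 56.4, 112, 349, 450, 449 and 572 CPM in the 6 classes. Ctsg was at 421, 682, 1588, 2148, 2906 and 4489 CPM in the 6 classes, higher in each class than in the one before. Mcpt4 was at 20.5, 67 and 495 CPM in the 3 classes of the 555 cells, with a UMI in 3 of 109, 4 of 98 and 43 of 348 cells. Tpsb2 was at 0, 13.1 and 166 CPM there. Mcpt8 was at 608, 301 and 1294 CPM with no steady order, in 46 of 109, 46 of 98 and 240 of 348 cells. In the class of 10 to 19, 1 cell held 106 of the 564 Mcpt8 UMIs. The share of cells with an Mcpt8 UMI was 10.9%, 18.4%, 34.9%, 42.2%, 46.9% and 69% over the 6 classes, higher in each than in the one before.

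Transcription factor and stem cell genes followed the same classes in part. Id2 was at 92.9 CPM in cells with 5 to 9 Cma1 UMIs and at 145, 169 and 317 CPM in the 3 classes of the 555 cells. Gata2 was at 290 CPM and then 475, 479 and 457 CPM. Hlf was at 311, 272, 197, 190, 139 and 147 CPM over the 6 classes and Cd34 at 463, 398, 212, 222, 172 and 170 CPM. Ly6a was at 643, 683, 666, 643, 596 and 928 CPM, abundant in every class and highest in the last. Median depth was 8304 UMIs in the first class and 6253 in the last.

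**Figure D4:**
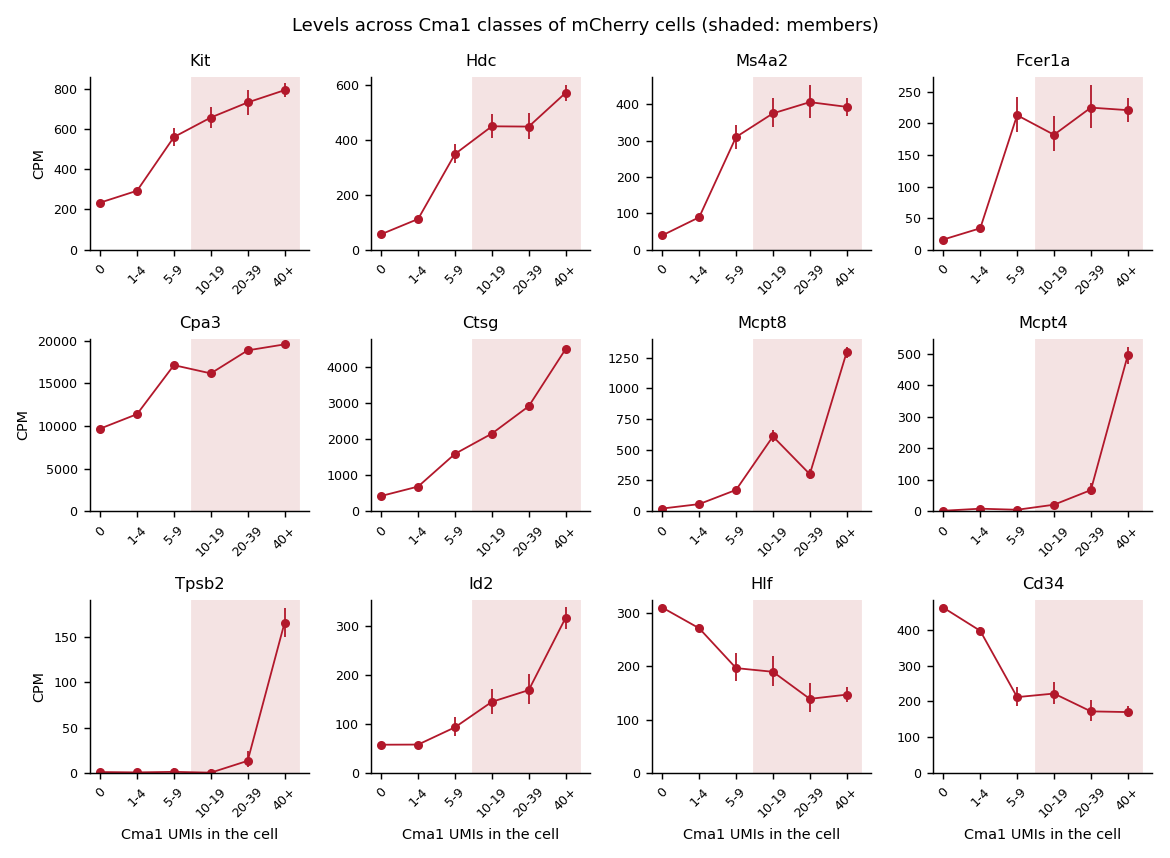
CPM of 12 genes in mCherry cells grouped by their Cma1 UMIs (0, 1 to 4, 5 to 9, 10 to 19, 20 to 39, 40 or more), with 95% Poisson intervals; the shaded classes are the Cma1-high cells. Kit, Ms4a2 and Fcer1a reach most of their level at 5 to 9 UMIs, Mcpt4 and Tpsb2 are high only in the last class, and Hlf and Cd34 are lower to the right.

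The 555 cells were not uniform in their proteases. Mcpt8 had UMIs in 332 cells and Mcpt4 in 50, of which 35 had both (70% of the Mcpt4 cells and 10.5% of the Mcpt8 cells), and 208 had neither. Cells with Mcpt8 had Ctsg at 5166 CPM and Cma1 at 14844 CPM, and the 223 without had 1690 and 7410 CPM. Fcer1a went the other way, at 125 CPM (111 to 139) in cells with Mcpt8 and 335 CPM (309 to 363) in those without, at median depths of 6348 and 6867 UMIs. Kit was at 706 and 816 CPM, and Hdc at 522 and 526 CPM, in the same groups. These groups were chosen after the values were seen, and a cell without a UMI may still express the gene.

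The 50 cells with Mcpt4 had a median of 1 Mcpt4 UMI and at most 272, so many were chosen by a single UMI. They had Tpsb2 at 1023 CPM, against 16.6 CPM in the other 505, and 12 of the 20 Tpsb2 cells were among them. Of their 376 Tpsb2 UMIs, 1 cell held 146, so this sum describes a few cells. Cyp11a1 in the 50 cells was at 212 against 63 CPM, Fcer1a at 430 against 193 CPM and Adora3 at 89.8 against 28.1 CPM. Cyp11a1 had a UMI in 19 of the 50, and Fcer1a in 44% against 38.4% of cells. Kit (825 and 746 CPM), Cpa3 (20683 and 18508 CPM), Hlf (158 and 155 CPM) and Cd34 (177 and 182 CPM) were close in the 2 groups. The Mcpt4 cells had a median of 6423 UMIs and the others 6599.

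Cells that met the same Cma1 rule in the other libraries were few and differed from the 555 in named genes. The 11 control cells had Cma1 at 11 to 87 UMIs (median 32) and the 12 non_mCherry cells at 14 to 140 (median 36.5), with median depths of 4713 and 5132 UMIs. Cpa3, Kit, Gata2 and Il1rl1 had UMIs in at least 9 cells of each. The level of Gata2 was 1495 CPM (1208 to 1830) in the control cells, 386 CPM (272 to 532) in the non_mCherry cells and 465 CPM (445 to 486) in the 555. Gzmb had a UMI in 10 of the 11 from control (median 32 UMIs; 4963 CPM), in 4 of the 12 from non_mCherry (2106 CPM) and in 4 of the 555 mCherry cells (1.87 CPM), 0.721% of them. The control cells thus carried Gzmb as a group, and the non_mCherry cells were split.

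Several other genes were seen in a larger share of the control cells. In the order control, non_mCherry and mCherry, Lgals1 had a UMI in 10 of 11, 7 of 12 and 67 of 555 cells, and Ier3 in 11, 7 and 136. Alox5 was seen in 7, 3 and 2 cells, Ccl3 in 5, 4 and 3, and Itgb7, an integrin subunit of mast cell progenitors, in 7, 6 and 76, at 175, 167 and 23.1 CPM. In the opposite direction, Ctla2a had a UMI in 1, 8 and 553 cells, and Ly6a in 1, 8 and 496. Mcpt4 was not seen in the control or non_mCherry cells that passed the cell filter. There 3 counts of the total give 27.3% and 25%, and the exact 95% upper limits for cells with a UMI are 28.5% and 26.5%. The filter left out 9 non_mCherry barcodes with 10 or more Cma1 UMIs, and 6 of those held 329 Mcpt4 UMIs. Fcer1g was at 1702, 823 and 98.2 CPM. With 11 and 12 cells from 1 library each, these values describe those cells.

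**Figure D5:**
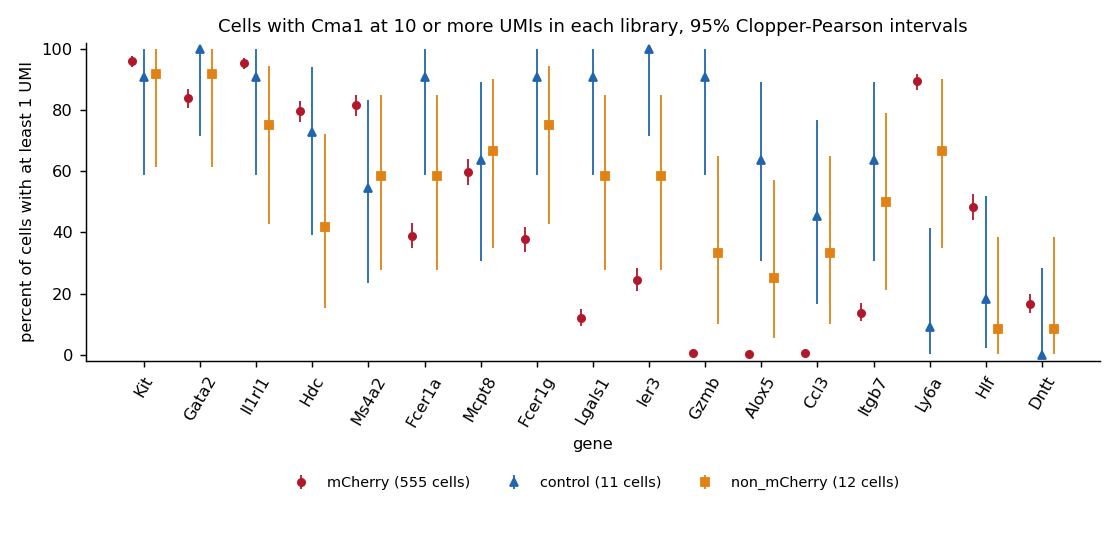
Percent of cells with at least 1 UMI of 17 genes (unthinned) among cells with Cma1 at 10 or more UMIs in the mCherry (555 cells), control (11) and non_mCherry (12) libraries, with 95% Clopper-Pearson intervals. Kit and Gata2, with a UMI in most cells of each, overlap in all 3, Gzmb, Alox5, Ier3 and Lgals1 lie near 0 to 25% in mCherry and higher in control, and Ly6a is the reverse.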

How the data were processed

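Single-cell RNA was measured in 3 droplet (10x Genomics) libraries, 1 per group. The authors deposited whole UMI counts per gene and cell for each library, with cell barcodes and 27998 genes. The submitters' processing notes name Cell Ranger 6.1.2 and mm10; the matrix headers name version 3.1.0, and which made the counts was not settled. Treatment of reads that match several genes is not given in the sources used here. Groups came from each sample's group label.

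Cells with at least 1000 genes, 2000 UMIs and under 10% mitochondrial UMIs were kept, 10419, 8056 and 9066 in mCherry, non_mCherry and control. Cells with Cma1 at 10 or more UMIs were compared with mCherry cells with Cma1 at 0 and with control cells with Prss34 at 5 or more. Counts were summed per group, scaled to CPM and compared as log2((CPM + 5)/(CPM + 5)) among genes with 20 CPM in 1 of the 2 sums. With 1 library per group no count model or test was used, and the calculation was tested on simulated data. The floor behind a fold against 0 UMIs is 3 counts over the group. For shares, cells were thinned to 5000 UMIs. Doublets were scored with Scrublet in scanpy 1.11.5; its automatic threshold marked 0 mCherry cells, so a score of 0.25, set after the scores were seen, was used in an alternative and no cell was left out of the main values. Gene locations are from GENCODE and promoters from RefSeq on the same build.

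The genes named were the 12 with the largest and the 12 with the smallest ratio in each comparison, the markers, all genes at 20 CPM of the protease, storage, eicosanoid, receptor, transcription factor and basophil lists, and the 2 highest and 2 lowest of each other list; Malat1, Lgals1 and the values shown across Cma1 classes, Mcpt4 and Mcpt8 subsets and the other libraries' Cma1-high cells were added after the values were seen. The rule for the cells, the 26 lists and the comparisons were chosen with earlier results of these data known. Alternatives changed the pseudocount, the filter, the scaling, the weight of cells, depth, doublets, the cell filter and both cell rules. Python 3.11.15, numpy 2.4.6, scipy 1.17.1 and pandas 2.3.3 were used.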

Additional observations from a re-analysis of the deposited data

Results flagged for a closer look

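Barcodes that the cell filter left out also carried Cma1, in data that the comparisons do not use, above the control library. Cma1 reached 10 UMIs in 21 of 904 left-out mCherry barcodes and in 9 of 1695 left-out non_mCherry barcodes, against 0 left-out control barcodes. Of the 21 mCherry barcodes, 19 had too few genes and UMIs and 6 too high a mitochondrial percent, and their median was 1312 UMIs. Their Cma1 ran from 11 to 329 UMIs and Cpa3 was at 15504 CPM. Mcpt4 had UMIs in 13 of the 21, 881 UMIs in all, while 50 of the 555 kept cells held 1356. The 9 non_mCherry barcodes had a median of 1016 UMIs, Cma1 from 11 to 151 UMIs and Mcpt4 in 6. Gzmb had no UMI in either set.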

How the results depend on the processing

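Of the counts of genes at least 2-fold apart, those that differed from the main value by more than 1.5 times did so under the 2 filters on low values. With a minimum of 50 CPM, fewer genes were tested, and 43 were lower than in Cma1-zero cells, and 589 higher and 389 lower than in basophils. With no minimum, 116 were lower than in Cma1-zero cells. Under the other alternatives the counts lay within 1.5 times, and median-of-ratios scaling gave 140 and 75 genes against Cma1-zero cells and 928 and 659 against basophils. Named genes and list medians that were past 2-fold kept their sign under every alternative run, with these exceptions. Without the S100a9-rich Cma1-zero cells, a setting added after the data were seen, S100a9 (0.24), S100a8 (0.01), Camp (0.07), Ngp (0.16) and the neutrophil median (0.01) turned from lower to level. With Cma1 at 5 or more, Hba-a1 (0.93), Hbb-bs (1.38) and the erythroid median (0.93) turned higher than in basophils. Without control basophils holding 10 or more UMIs of Prg2, Elane or Hbb-bs, also added after the data were seen, 177 of 224 basophils were left, 97 of 104 named genes stayed past 2-fold, and Prg2, Prg3, Epx, Cebpe, Irf8, Hba-a1 and Plek did not. Its list medians were -0.86 for erythroid, -0.88 for monocyte, -0.50 for eosinophil and 0.86 for megakaryocyte genes, all inside 2-fold; the cause was not tested. No paired analysis was possible because each group has 1 library. Genes near 0 CPM rest on a few UMIs in the 555 cells.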
